A study of Mus musculus with 1 sample.

Results

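The cells described here are 699 cells of the mouse adrenal cortex with a high share of *Cyp11b1* transcripts, found among 10139 barcodes that passed the filter on cells, of 11214 in the library. They make up 6.89% of the cells that passed (exact binomial 95% interval 6.41 to 7.405) and 22.1% of the 3160 cortex cells. A barcode was kept when it held 500 to 5000 genes and at most 20% mitochondrial UMIs (unique molecular identifiers, each counting 1 captured transcript). It was called a cortex cell when at least 5 of 9 steroidogenic genes (*Star*, *Nr5a1*, *Cyp11a1*, *Hsd3b1*, *Cyp11b1*, *Cyp21a1*, *Mc2r*, *Fdx1* and *Scarb1*) had a UMI, with under 4 of 7 chromaffin markers and under 4 of 7 endothelial markers. A *Cyp11b1*-high cell further had *Cyp11b1* at 0.1% of its UMIs or more, no UMI of *Wnt4* and under 3 of 6 cycling markers. The cells were thus chosen by their measured levels of *Cyp11b1*, *Wnt4* and the marker genes, and these levels are given below as a description only.

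The study took 10 adrenals of 5 wild-type, untreated mice of both sexes at postnatal day 15, pooled them, and trimmed away fat and most of the cortex by hand before digestion. The medullae gave 1 droplet library, for which 10000 viable cells were taken. The cortex cells are those that the trimming left, so their number says nothing of the size of a zone in the gland. No label ties a cell to a mouse. With 1 library there is no replicate, no difference below has a test, and all intervals cover counting error only. The *Cyp11b1*-high cells were set beside 3 other groups of cortex cells from the same library. These were 1555 *Cyp11b1*-low cells (under 0.1% *Cyp11b1*, no *Wnt4* UMI, not cycling), 631 *Wnt4*-positive cells (any level of *Cyp11b1*, at least 1 *Wnt4* UMI, not cycling) and 275 cycling cortex cells (3 or more cycling markers). All 3 comparisons share the *Cyp11b1*-high cells, so they are not independent of each other.

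The zona fasciculata, the middle zone of the adrenal cortex, makes glucocorticoids, which in the mouse means corticosterone. The pituitary hormone ACTH binds the receptor MC2R, which needs its accessory protein MRAP to reach the cell surface, and cAMP then drives the delivery of cholesterol to mitochondria by StAR and its conversion by CYP11A1, HSD3B, CYP21A1 and finally CYP11B1. Outside the fasciculata lies the aldosterone-making zona glomerulosa, where *Wnt4* is expressed, and in young mice a transient X-zone, marked by *Akr1c18*, lies inside it against the medulla.

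The *Cyp11b1*-high cells held 3881251 UMIs in all, with a median of 4925 UMIs per cell (range 747 to 20911) and 1939 genes. The median was 5205 UMIs in the *Cyp11b1*-low cells, 5559 in the *Wnt4*-positive cells and 9047 in the cycling cells. Their median mitochondrial share was 10.9%, above the 6.59% of the *Cyp11b1*-low cells and the 8.03% of the *Wnt4*-positive cells. Counts with mitochondrial transcripts left out of the totals, and under a stricter filter on cells, are given at the end. Any other part of this gap in the differences below was not tested. Another 31 barcodes met every other term of the rule but lay outside the limits on genes or mitochondrial share. Scrublet called 22 of the 699 cells doublets (3.15%), against 3.15% of the *Cyp11b1*-low and 3.96% of the *Wnt4*-positive cells, and they were kept.

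Markers of other cell types were low in the *Cyp11b1*-high cells. For the chromaffin and endothelial markers this is partly fixed by the rule, which limits how many a cell may have. Levels are given in CPM, the summed UMIs of a gene over all cells of a group per 1000000 UMIs of that group. The 7 chromaffin markers summed to 212 CPM, led by the secretory granule gene *Chgb* at 131 CPM. That sum was above the 142 CPM of the *Cyp11b1*-low, 129 CPM of the *Wnt4*-positive and 70.6 CPM of the cycling cells. Endothelial cells, which should lack these markers and were also chosen with under 4 of them, summed to 163 CPM with *Chgb* at 102 CPM. The adrenaline enzyme gene *Pnmt* stood at 30.7 CPM, against 53.8 CPM in endothelial cells. The 7 endothelial markers summed to 30.1 CPM, the 10 macrophage markers to 124 CPM (endothelial cells 541 CPM), the 6 fibroblast markers to 18.8 CPM with *Lum* at 0, and the 7 sustentacular markers to 11.1 CPM. At least 3 markers of a type were found together in 10 cells for macrophages, 3 for sustentacular cells and 1 for fibroblasts. The rule allowed up to 3 chromaffin and 3 endothelial markers. Of the *Cyp11b1*-high cells, 17 had 3 chromaffin markers and 10 had 3 endothelial markers. Erythrocyte transcripts were the exception, at 2152 CPM, but 97.6% of the *Hba-a1* and *Hbb-bs* UMIs sat in 15 cells, and the *Cyp11b1*-low cells had 2138 CPM.

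*Cyp11b1* (chr15:74834892-74841643, GRCm38, protein coding), the last enzyme of corticosterone synthesis, made up a median of 0.463% of the UMIs of a *Cyp11b1*-high cell, with quartiles at 0.303% and 0.626% and the highest at 1.201%. The 3 cells just inside the threshold had 0.1007%, 0.1018% and 0.1029%, and the 3 cells just outside it 0.09857%, 0.09826% and 0.09756%. The threshold cut through few cells, with 17 between 0.08% and 0.1% and 24 between 0.1% and 0.12%. Among the *Cyp11b1*-low cells 90.03% had no *Cyp11b1* UMI at all, close to the 95.6% of endothelial cells (median 2306 UMIs per cell).

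**Figure D1:**
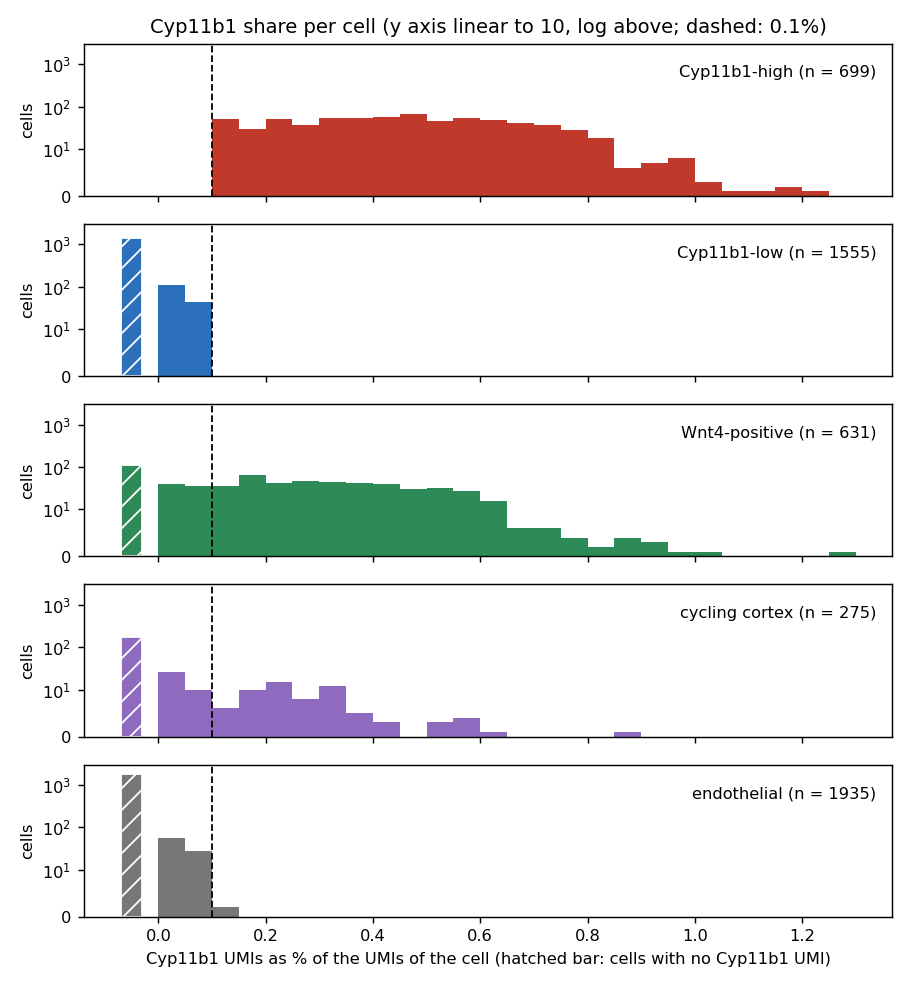
Histograms of the share of a cell's UMIs that is *Cyp11b1* (x axis, percent) against the number of cells (y axis, linear up to 10 and logarithmic above) in the *Cyp11b1*-high, *Cyp11b1*-low, *Wnt4*-positive, cycling cortex and endothelial cells, with a hatched bar for cells at 0 and a dashed line at the 0.1% threshold. The *Cyp11b1*-high cells spread broadly around a median of 0.463%, most *Cyp11b1*-low and endothelial cells stand at 0, and the *Wnt4*-positive cells cover both.

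The markers behind the name fasciculata-like, *Cyp11b1*, *Star* and *Mc2r*, are all part of the rule, so their detection is partly fixed by the choice of cells. *Star* had a UMI in 100% of the *Cyp11b1*-high cells and *Mc2r* in 81.4%, against 15.8% and 0.879% of endothelial cells. *Cyp11b2*, the aldosterone synthase of the glomerulosa and a close paralog of *Cyp11b1*, had 1 UMI in all 699 cells together and 49 UMIs in the *Wnt4*-positive cells. *Akr1b7*, an aldo-keto reductase long used as a fasciculata marker and not part of the rule, was found in 70.8% of the cells and in 2.22% of endothelial cells. Of the 9 rule genes, 300 cells (42.9%) had all and 254 (36.3%) had 8, and 6 cells had only 5. The same markers were also present in the *Wnt4*-positive cells, where *Mc2r* had a UMI in 84.3% and *Akr1b7* in 69.9% of cells, so these markers alone do not set the *Cyp11b1*-high cells apart from that group.

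The dividing line to the *Wnt4*-positive cells moved with depth, mainly in the deepest cells. Of the 1143 non-cycling cortex cells at or above 0.1% *Cyp11b1*, 444 were left out for a *Wnt4* UMI. That share was 31.5% (26.1 to 37.2) in the shallowest of 4 equal depth bins (747 to 3650 UMIs). It was 30.5% (25.2 to 36.2) and 35.8% (30.2 to 41.7) in bins 2 and 3. In the deepest (7722 to 22418 UMIs) it was 57.5% (51.5 to 63.3). A cell without a *Wnt4* UMI cannot be told apart from a *Wnt4*-expressing cell whose transcript was not captured, and 262 of the 631 *Wnt4*-positive cells had only 1 *Wnt4* UMI.

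Genes of the *Cyp11b1*-high cells were ranked by the fold over the 5531 cells with under 3 of the 9 steroidogenic genes, with 10 CPM added to both levels. *Adh1*, an alcohol dehydrogenase that also oxidises retinol, had 3405 CPM against 23.9 CPM (fold 101). *Akr1b7* had 1087 against 3.14 CPM (fold 83.5), the prolactin receptor gene *Prlr* 866 against 2.33 CPM, and the cell-cycle inhibitor gene *Cdkn1c* 1782 against 16.7 CPM. *Hao2*, a hydroxyacid oxidase, had 735 against 1.62 CPM. *Akr1cl*, *Mgarp* and the cytochrome P450 gene *Cyp2f2* completed the 8 non-rule genes among the leading 15. This ranking is against cells outside the cortex. Among cortex cells *Adh1*, *Akr1cl* and *Cyp2f2* were also abundant in the *Cyp11b1*-low cells, at 2761, 6494 and 1960 CPM, *Cdkn1c* stood at 1309 CPM in the *Wnt4*-positive cells, and *Prlr* was found in 91.0% of the *Cyp11b1*-high, 85.4% of the *Wnt4*-positive and 77.9% of the *Cyp11b1*-low cells.

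The promoters of 7 of these 8 genes were in the RefSeq table of the mouse build GRCm38.p6. A window of 250 bases before the gene start was searched on both strands for AAGGTCA, a letter string that the steroidogenic regulator encoded by *Nr5a1* is known to bind, and 2 of the 7 windows (*Akr1b7* and *Cyp2f2*) held it, against 4.08% of all 32851 windows. Both are shown because they carry the match beside genes used throughout the results below. They are printed 5′ to 3′ on the plus strand, on which both genes lie, with the match in capitals. In *Akr1b7* (chr6:34412112-34412361) it reads on the opposite strand and starts 248 bases before the gene, and in *Cyp2f2* (chr7:27119705-27119954) it reads forward, 222 bases before the gene. A match is a description of the letters and not a binding site.
Akr1b7: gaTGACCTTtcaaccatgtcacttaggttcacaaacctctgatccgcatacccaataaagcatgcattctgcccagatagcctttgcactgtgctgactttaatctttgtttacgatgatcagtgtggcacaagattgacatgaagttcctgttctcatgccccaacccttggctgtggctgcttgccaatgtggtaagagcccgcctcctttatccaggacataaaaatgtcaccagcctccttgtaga
Cyp2f2: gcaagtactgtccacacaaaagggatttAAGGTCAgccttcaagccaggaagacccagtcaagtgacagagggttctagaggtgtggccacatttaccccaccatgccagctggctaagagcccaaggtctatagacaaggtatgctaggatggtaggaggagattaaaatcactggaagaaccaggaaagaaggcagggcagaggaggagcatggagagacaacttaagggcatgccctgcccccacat

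Genes were counted when the fold between groups, with 10 CPM added to both, reached 2, over the 5591 genes outside the rule with at least 20 CPM in all cortex cells together. Against the *Cyp11b1*-low cells 219 genes were higher in the *Cyp11b1*-high cells (3.92% of those tested) and 200 lower (3.58%), with a median log2 fold of -0.015 over all genes. This contrast is the one that the *Cyp11b1* threshold makes, and nothing is read from these total counts. Counts of gene lists in it are given below as a description. Against the *Wnt4*-positive cells 34 genes were higher (0.608%) and 55 lower (0.984%), and against the cycling cells 95 were higher (1.7%) and 244 lower (4.36%). With 50 CPM added the counts were 87 and 93, 8 and 24, and 27 and 107 in the same order. After each cell was thinned to 1000 UMIs the *Wnt4*-positive contrast had 77 and 103.

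Genes of the steroid pathway were abundant at each step. *Star*, which moves cholesterol into mitochondria, stood at 7076 CPM (Poisson 95% interval 6992 to 7160) in the *Cyp11b1*-high cells, 7570 CPM in the *Cyp11b1*-low cells, 4904 CPM in the *Wnt4*-positive cells and 4843 CPM in the cycling cells. *Cyp11a1*, which cuts cholesterol to pregnenolone, had 5993, 3087, 6349 and 3075 CPM in the same order. *Hsd3b1*, the next enzyme, had 9375, 4193, 7965 and 3811 CPM, and *Cyp21a1* 8878, 3040, 5537 and 3236 CPM. So *Star* was about as high in cells with almost no *Cyp11b1*, while the 3 enzymes between them were lower there. All of these are rule genes, and *Hsd3b1* and *Cyp21a1* have near-identical copies in the mouse genome among which 3′ reads may be split.

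Of 11 other steroid enzymes and electron donors tested, 2 were at least 2-fold higher than in the *Cyp11b1*-low cells (*Srd5a1* and *Akr1b7*) and 3 lower (*Cyb5a*, *Srd5a2* and *Akr1c18*), with a median log2 fold of -0.081. Against the *Wnt4*-positive cells 1 was higher (*Srd5a2*) and none lower (median 0.16). Over all genes tested 3.92% were higher and 3.58% lower than in the *Cyp11b1*-low cells, and 0.608% and 0.984% than in the *Wnt4*-positive cells. Ferredoxin (*Fdx1*) stood at 3987 CPM in the *Cyp11b1*-high and 3564 CPM in the *Cyp11b1*-low cells, and ferredoxin reductase (*Fdxr*) at 1146 and 961 CPM. *Cyp17a1*, which is needed for cortisol and androgens, had 1 UMI in the 699 cells. *Akr1b7* (chr6:34412362-34423137), which clears an aldehyde released by side-chain cleavage, had 1087 CPM (1054 to 1120), 4.73 times the 230 CPM of the *Cyp11b1*-low cells (4.50 to 4.98), 1.42 times the 768 CPM of the *Wnt4*-positive cells (1.351 to 1.482) and 3.73 times the 291 CPM of the cycling cells (3.46 to 4.03). It was also uneven from cell to cell, with no UMI in 29.2% of the *Cyp11b1*-high cells and 33.0 UMIs per 10000 or more in the top 5%. *Star* by contrast had no cell at 0 and quartiles of 46.0 and 82.2 UMIs per 10000.

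**Figure D2:**
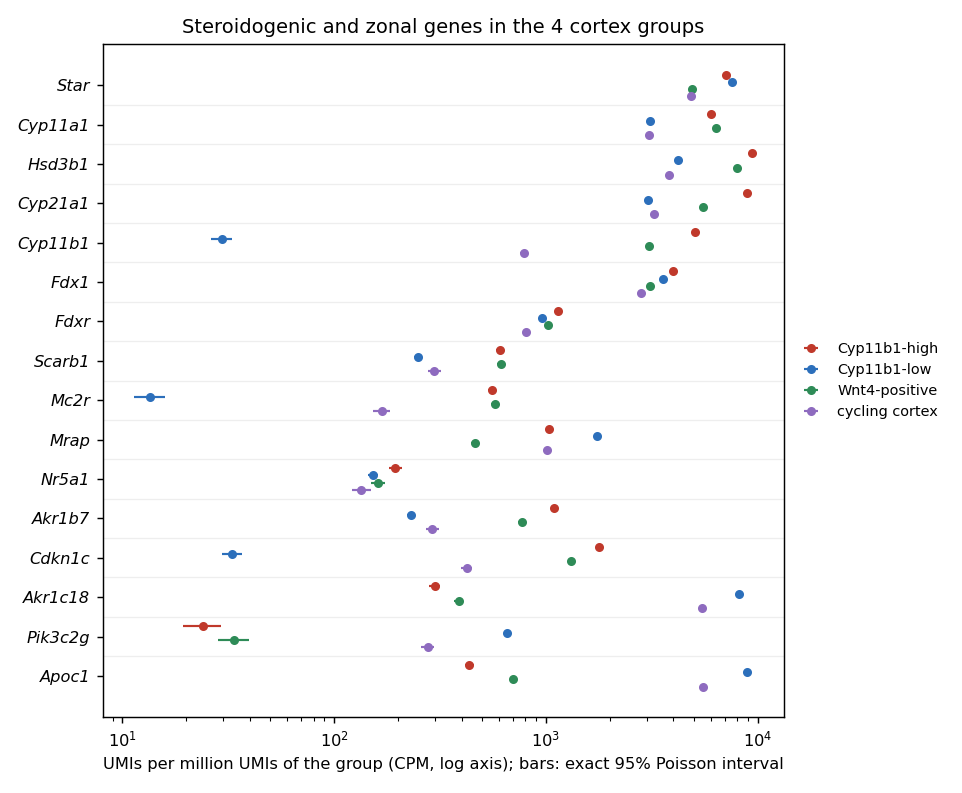
Levels of 16 genes of steroid synthesis, the ACTH receptor and zone markers (vertical axis) in CPM (horizontal axis, logarithmic) in the *Cyp11b1*-high, *Cyp11b1*-low, *Wnt4*-positive and cycling cortex cells, with bars for 95% Poisson intervals. *Star* lies within 4843 to 7570 CPM in all 4 groups, *Cyp11b1* spans 29.5 to 5048 CPM, and *Akr1c18* runs the other way, from 299 CPM in the *Cyp11b1*-high to 8200 CPM in the *Cyp11b1*-low cells.

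The ACTH receptor gene *Mc2r* and the gene of its accessory protein, *Mrap*, had different patterns across the cortex groups. *Mc2r* stood at 556 CPM (533 to 580) in the *Cyp11b1*-high cells and 575 CPM in the *Wnt4*-positive cells, but at 13.5 CPM in the *Cyp11b1*-low cells and 3.37 CPM in endothelial cells. *Mrap* (chr16:90738207-90749785) stood at 1039 CPM (1007 to 1072), which was 2.24 times the 463 CPM of the *Wnt4*-positive cells (2.12 to 2.37) and 0.594 times the 1749 CPM of the *Cyp11b1*-low cells (0.574 to 0.615). After each cell was thinned to 1000 UMIs, which left out 7 *Cyp11b1*-high and 145 endothelial cells, *Mc2r* had a UMI in 38.4% of the *Cyp11b1*-high, 1.95% of the *Cyp11b1*-low and 39.4% of the *Wnt4*-positive cells, against 0.224% of endothelial cells. *Mrap* was then found in 60.7%, 77.7% and 29.1%. The *Cyp11b1*-low cells thus had the accessory protein gene with almost no receptor transcript. *Mc2r* is a rule gene, so its own contrast is partly set by the choice of cells.

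Of 29 genes of the ACTH and cAMP pathway, *Mrap* included, 16 could be tested. Over all genes tested 3.92% were at least 2-fold higher than in the *Cyp11b1*-low cells and 3.58% lower (median log2 fold -0.015). Of these 16, 3 were higher and none lower (median log2 fold -0.12), or 1 higher with 50 CPM added.

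These 3 were the regulatory kinase subunit gene *Prkar2b* (267 against 96.4 CPM, ratio 2.77, 2.54 to 3.03) and the nuclear receptor genes *Nr4a1* (58.0 against 22.0 CPM) and *Nr4a2* (34.8 against 10.9 CPM). The *Nr4a* genes are shown beside the immediate-early genes further on, and whether the digestion had a part in their levels was not tested. Against the *Wnt4*-positive cells *Mrap* and the cAMP phosphodiesterase gene *Pde8b* were higher (92.8 against 40.3 CPM, ratio 2.30, 1.91 to 2.79) and *Nr4a2* was lower (95.3 CPM there). Over all genes tested 0.608% were higher and 0.984% lower than in the *Wnt4*-positive cells. With 50 CPM added 1 gene of the list was higher and none lower in that contrast. Without the cells that had a haemoglobin UMI, or after thinning to 1000 UMIs, 1 was higher. The G protein gene *Gnas* was nearly level, at 1038, 912 and 1035 CPM in the *Cyp11b1*-high, *Cyp11b1*-low and *Wnt4*-positive cells.

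Cholesterol synthesis genes were lower in the *Cyp11b1*-high than in the *Cyp11b1*-low and cycling cells. The 20 genes of the pathway from acetyl-CoA to cholesterol summed to 846 CPM there, 751 CPM in the *Wnt4*-positive cells, 2426 CPM in the cycling cells and 4583 CPM in the *Cyp11b1*-low cells, with 358 CPM in endothelial cells. Of 18 genes tested, 16 were at least 2-fold lower than in the *Cyp11b1*-low cells and none higher (median log2 fold -2.09), and 13 were lower than in the cycling cells (median -1.37). With 50 CPM added the latter count was 6 (median -0.76), and with 1 CPM added it was 17. None passed 2-fold against the *Wnt4*-positive cells (median -0.072). Over all genes tested 3.58% were lower than in the *Cyp11b1*-low and 4.36% than in the cycling cells. The 2 genes short of 2-fold against the *Cyp11b1*-low cells were *Mvk* (12.4 against 32.6 CPM) and *Dhcr7*, which acts in the last steps (222 against 344 CPM).

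Single enzymes had the same order. *Hmgcs1*, near the entry of the pathway, stood at 147 CPM (135 to 160) in the *Cyp11b1*-high and 700 CPM in the *Cyp11b1*-low cells, 4.76 times as much (4.37 to 5.19).

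*Idi1* had 33.0 and 382 CPM (ratio 11.6, 9.72 to 13.9) and *Fdps*, which makes farnesyl diphosphate, 103 and 1028 CPM (ratio 10.0, 9.07 to 11.1). *Sqle*, the squalene oxidising enzyme, had 10.8 and 120 CPM (ratio 11.1, 8.17 to 15.5). *Fdps* was scarce per cell as well. It had no UMI in 72.7% of the *Cyp11b1*-high cells, and at 1000 UMIs per cell it was found in 7.80% of them, 51.7% of the *Cyp11b1*-low and 3.24% of endothelial cells.

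**Figure D3:**
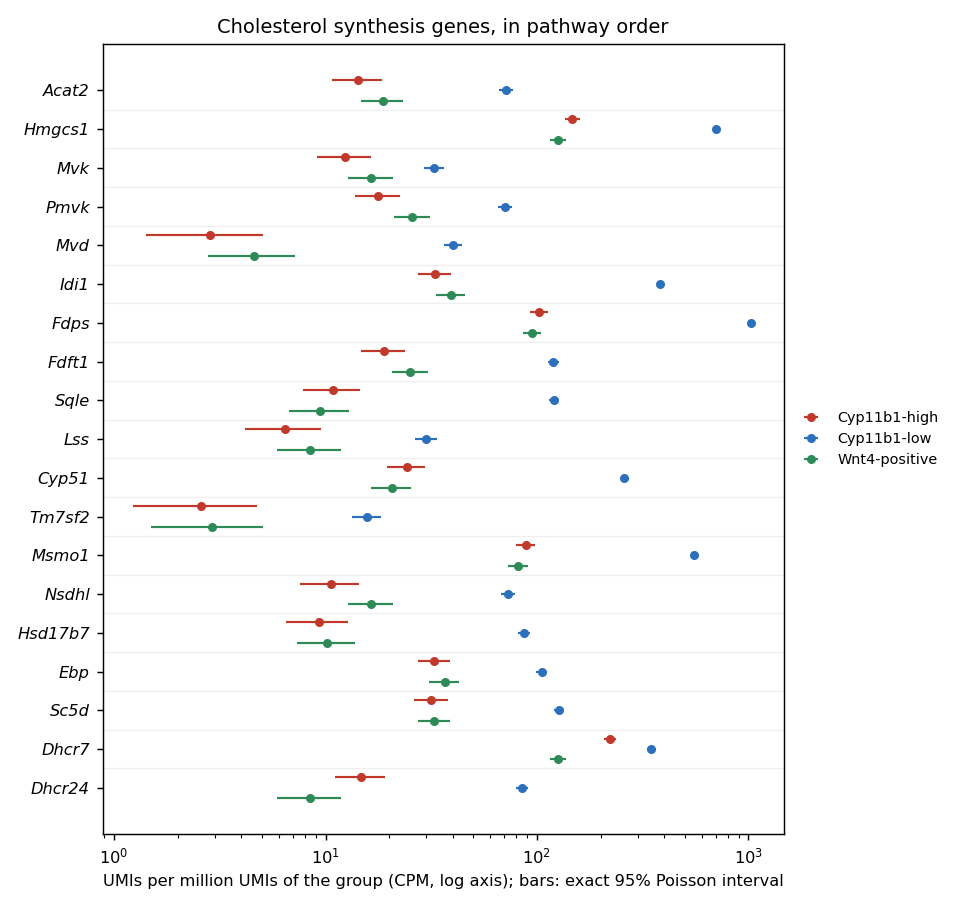
Levels of 19 cholesterol synthesis genes in pathway order (vertical axis) in CPM (horizontal axis, logarithmic) in the *Cyp11b1*-high, *Cyp11b1*-low and *Wnt4*-positive cells, with bars for 95% Poisson intervals. The *Cyp11b1*-low cells have the highest level of each gene shown, for example 1028 against 103 and 95.1 CPM for *Fdps*, and the gap is smallest at *Dhcr7*.

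Promoter windows were found for 15 of the 20 cholesterol synthesis genes, and 13 of them held CCAAT on either strand, against 33.8% of the same 32851 windows. These are the letters that the factor NF-Y binds beside the sterol-responsive factor SREBP. CCAAT was also in 3 of the 7 windows of leading genes above. AAGGTCA was in 2 of these 15 windows (*Dhcr7* and *Hmgcs1*). The window of *Hmgcs1* (chr13:119690101-119690350, GRCm38.p6, plus strand, on which the gene lies) is shown as an example of the pathway. CCAAT reads 3 times on its opposite strand, 237, 176 and 45 bases before the gene start, in capitals. The match to AAGGTCA, on the opposite strand too, is left in small letters.
Hmgcs1: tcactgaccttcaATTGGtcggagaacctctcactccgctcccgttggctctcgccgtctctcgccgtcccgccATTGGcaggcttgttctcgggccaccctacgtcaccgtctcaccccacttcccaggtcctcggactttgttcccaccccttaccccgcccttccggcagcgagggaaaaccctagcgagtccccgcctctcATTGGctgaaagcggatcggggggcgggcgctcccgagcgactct

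Of 18 genes of cholesterol control, uptake and storage tested, 7 stood above their level in the *Cyp11b1*-low cells and 11 below. By at least 2-fold 1 was higher and 5 lower (median log2 fold -0.17), against 3.92% and 3.58% of all genes tested. *Soat1*, which esterifies cholesterol for storage, was the higher one, at 766 CPM (739 to 794) against 316 CPM (ratio 2.42, 2.30 to 2.55), and it stood at 811 CPM in the *Wnt4*-positive cells. *Stard4*, a sterol carrier, had 24 UMIs (6.18 CPM) against 112 CPM (18.1 times lower, 12.1 to 28.3). *Srebf2*, the master regulator of the pathway, had 15.2 against 42.9 CPM. The HDL receptor gene *Scarb1*, a rule gene, ran the other way, at 607 against 248 CPM, with 210 CPM in endothelial cells.

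The 3 X-zone genes were low in the *Cyp11b1*-high cells and high in the *Cyp11b1*-low cells (3 of 3 lower, median log2 fold -4.29). *Akr1c18* (chr13:4132615-4150646), which breaks down progesterone, stood at 299 CPM (282 to 316) against 8200 CPM, 27.5 times lower (25.9 to 29.1), and was found in 16.9% against 91.6% of cells. Endothelial cells had 152 CPM and 11.3% of cells with a UMI. Most of the level came from 24 cells, described further on, and the other 675 cells stood at 39.8 CPM. The level over all *Cyp11b1*-high cells also moved with the settings, to 188 CPM without called doublets, 177 CPM with a *Cyp11b1* threshold of 0.2% and 582 CPM with 1000 genes or more and 10% mitochondrial UMIs or less, where the *Cyp11b1*-low cells had 8273, 7986 and 7767 CPM. *Pik3c2g*, a lipid kinase gene, had 24.0 against 654 CPM, and the thyroid hormone receptor gene *Thrb* 72.7 against 256 CPM. Against the *Wnt4*-positive cells none of the 3 passed 2-fold. In other settings 1 did, upward without called doublets or with levels averaged over cells, and downward at a *Cyp11b1* threshold of 0.2%.

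Other genes led the contrast with the *Cyp11b1*-low cells. Of the 10 with the largest folds upward, *Cdkn1c* (chr7:143458339-143461059) was the leading gene, at 1782 CPM (1740 to 1825) against 32.9 CPM, 54.2 times higher (48.5 to 60.7 for counting error), with 1309 CPM in the *Wnt4*-positive and 40.2 CPM in endothelial cells. The *Cyp11b1* threshold moved this fold, with 1719 against 24.4 CPM at 0.05% and 1856 against 64.2 CPM at 0.2%. *Aebp1* had 743 against 19.9 CPM (ratio 37.4, 32.4 to 43.4), *Tesc*, a calcium-binding protein gene, 400 against 7.55 CPM, and the adenosine receptor gene *Adora1* 152 against 2.58 CPM. *Hao2* (chr3:98874519-98895376) had 735 against 52.7 CPM and *Frzb*, a secreted Wnt antagonist, 313 against 25.2 CPM. *Tpm2*, *Acsbg1*, *Cryba4* and *Klhdc8a* made up the rest.

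In the other direction *Apoc1*, an apolipoprotein gene, stood at 435 against 8946 CPM (20.6 times lower, 19.6 to 21.6). It stood at 236 against 8739 CPM at a *Cyp11b1* threshold of 0.2%, and at 812 against 9396 CPM with 1000 genes or more and 10% mitochondrial UMIs or less. *Ankrd55* was at 31.7 against 737 CPM and the complement gene *C3* at 32.5 against 388 CPM. *Fetub*, *Kcnk2* and *Crip2* were lower too, beside *Akr1c18*, *Pik3c2g*, *Fdps* and *Idi1*. The drug efflux pump gene *Abcb1b* had 1108 against 3666 CPM and the microsomal glutathione transferase gene *Mgst1* 1244 against 3262 CPM.

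Growth and signalling genes were also counted as lists. Of 8 growth and imprinted genes tested, 4 were at least 2-fold higher than in the *Cyp11b1*-low cells and none lower (median log2 fold 0.94), among them *Cdkn1c* and *Igfbp7* (836 against 107 CPM). Over all genes tested 3.92% were higher and 3.58% lower in that contrast, with a median of -0.015. Of 6 secreted signals, 3 were higher and none lower (median 0.81), including the inhibin alpha gene *Inha* (175 against 12.2 CPM) and *Vegfa* (89.2 against 25.7 CPM). Of 12 cortex transcription factors, *Tbx3* was higher (246 against 48.1 CPM) and *Nr3c1*, the glucocorticoid receptor gene, and *Thrb* lower.

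Of 78 respiratory chain and ATP synthase genes, 1 passed 2-fold against the *Cyp11b1*-low cells (*Cox7a1*, 58.5 against 174 CPM, median log2 fold -0.20) and none against the *Wnt4*-positive or the cycling cells. Of 27 antioxidant genes, only *Mgst1* passed against the *Cyp11b1*-low cells and none against the *Wnt4*-positive cells. Of 8 adhesion and matrix genes, *Col4a1* was higher than in the *Cyp11b1*-low cells (153 against 65.6 CPM), and *Sparc*, the most abundant, was level at 5489 against 5484 CPM. Of 4 glucocorticoid response genes, *Nr3c1* was lower than in the *Cyp11b1*-low cells (14.2 against 39.1 CPM) and *Dusp1* lower than in the *Wnt4*-positive cells (129.9 against 377 CPM). Over all genes tested 3.92% were higher and 3.58% lower than in the *Cyp11b1*-low cells. Against the *Wnt4*-positive cells 0.608% were higher and 0.984% lower.

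Of the 55 genes lower in the *Cyp11b1*-high than in the *Wnt4*-positive cells, 15 were immediate-early or heat shock genes. These are switched on within minutes by stimulation or by handling such as tissue digestion. All 20 genes of the list that were tested had a lower level in the *Cyp11b1*-high cells, 15 of them by at least 2-fold (median log2 fold -1.30, against 0.012 over all genes). With 50 CPM added it was 8 of 20 (median -0.90). Over all genes tested 0.984% were lower in that contrast. The whole list of 22 summed to 3696 CPM in the *Cyp11b1*-high, 3105 CPM in the *Cyp11b1*-low and 7451 CPM in the *Wnt4*-positive cells, with 8329 CPM in endothelial cells.

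*Fos* stood at 311 CPM (294 to 329) in the *Cyp11b1*-high, 144 CPM in the *Cyp11b1*-low and 1191 CPM in the *Wnt4*-positive cells, 3.83 times the *Cyp11b1*-high level (3.59 to 4.08). *Jun*, its partner, had 427, 306 and 1088 CPM, and *Atf3*, a stress-induced transcription factor, 18.6, 7.26 and 130 CPM. The heat shock gene *Hspa1a* had 55.1, 39.5 and 152 CPM, with its near-identical copy *Hspa1b* at 53.6 and 127 CPM in the *Cyp11b1*-high and *Wnt4*-positive cells, so reads may be split between them.

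*Fos* was found in 37.8% of the *Cyp11b1*-high and 74.3% of the *Wnt4*-positive cells, and at 1000 UMIs per cell in 17.3% and 50.1%, against 33.4% of endothelial cells. Within the *Cyp11b1*-high cells 62.2% had no *Fos* UMI, while the top 5% had at least 24.2 UMIs per 10000. Against the *Cyp11b1*-low cells 4 of the 20 genes were at least 2-fold higher (*Fos*, *Junb*, *Btg2* and *Hspb1*) and none lower. That count was 0 with 50 CPM added, 2 at a *Cyp11b1* threshold of 0.2% and 7 with 1000 genes or more and 10% mitochondrial UMIs or less. Over all genes tested 3.92% were higher than in the *Cyp11b1*-low cells. Whether the digestion had a part in these levels was not tested.

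**Figure D4:**
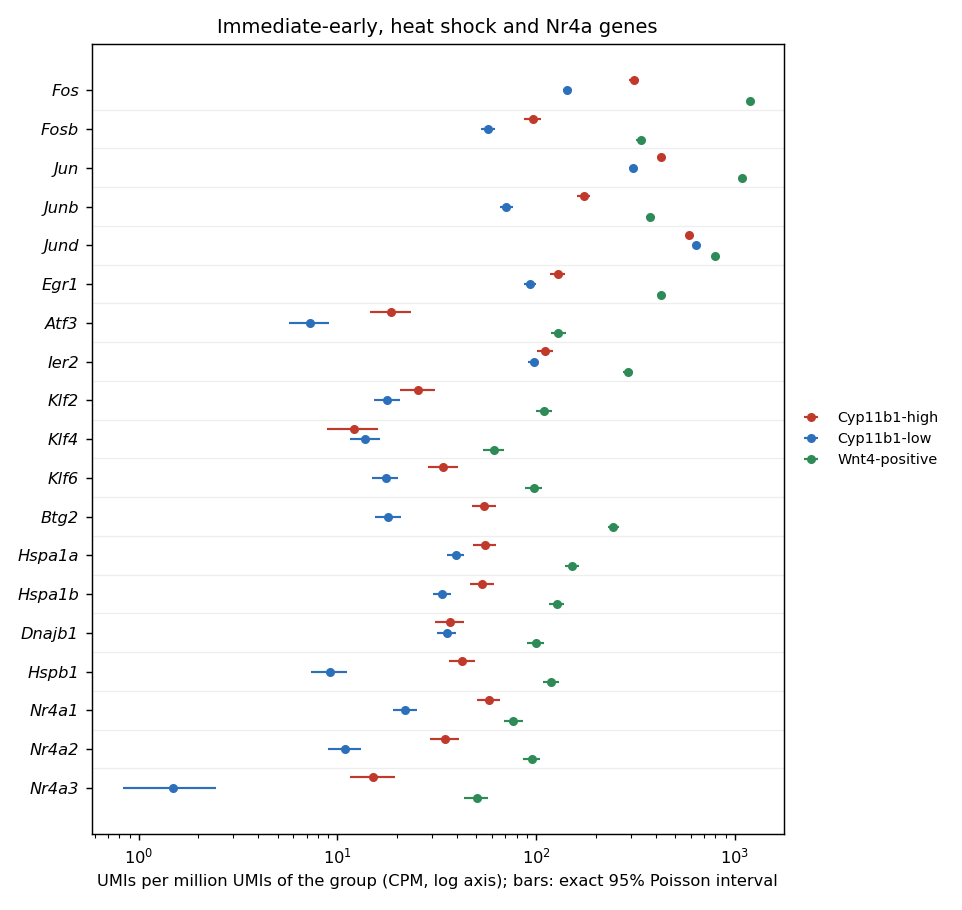
Levels of 19 immediate-early, heat shock and *Nr4a* genes (vertical axis) in CPM (horizontal axis, logarithmic) in the *Cyp11b1*-high, *Cyp11b1*-low and *Wnt4*-positive cells, with bars for 95% Poisson intervals. The *Wnt4*-positive cells are the highest group throughout, with 1191 CPM of *Fos* against 311 CPM in the *Cyp11b1*-high and 144 CPM in the *Cyp11b1*-low cells.

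Of 19 outer cortex genes 3 could be tested, and 2 of them (*Dab2* and *Agtr1a*) were at least 2-fold lower in the *Cyp11b1*-high than in the *Wnt4*-positive cells (median log2 fold -1.16), while all 3 were higher than in the *Cyp11b1*-low cells (median 2.32). Over all genes tested 3.92% were higher than in the *Cyp11b1*-low and 0.984% lower than in the *Wnt4*-positive cells. *Ecrg4*, a secreted peptide gene, had 9 UMIs (2.32 CPM) in the *Cyp11b1*-high cells against 816 CPM, and was the gene with the largest fold. *Ly6d*, a surface protein gene, had 232 CPM (217 to 247) against 2397 CPM (10.3 times lower, 9.65 to 11.1), and was found in 18.3% against 68.6% of cells (endothelial cells 1.60%). *Dab2*, an endocytic adaptor of the outer zone, had 113 against 552 CPM (4.88 times lower, 4.40 to 5.41), and *Agtr1a*, the angiotensin receptor gene, 46.6 against 117 CPM. *Shh*, a signal of outer cortex progenitors that was too low to be tested, had 5 UMIs against 80 UMIs.

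The *Wnt4*-positive cells also had more of the imprinted genes *Meg3* (291 against 47.2 CPM) and *Ndn* (196 against 31.2 CPM), and of *Cpe* (459 against 92.8 CPM), *Ptn*, *Caln1* and *Sorbs2*. *Kcnk3*, a potassium channel gene of the outer cortex list, was less divided, at 1404 CPM in the *Cyp11b1*-high and 1687 CPM in the *Wnt4*-positive cells, against 274 CPM in the *Cyp11b1*-low cells.

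The genes with the largest folds of the *Cyp11b1*-high over the *Wnt4*-positive cells included a steroid reductase, a cytochrome P450 and a gap junction gene. *Akr1d1*, the reductase gene, had 145 CPM (133 to 158), 315 CPM in the *Cyp11b1*-low and 31.8 CPM in the *Wnt4*-positive cells (ratio to the latter 4.57, 3.77 to 5.57). *Cyp2f2* (chr7:27119955-27133660) had 988, 1960 and 296 CPM (ratio 3.34, 3.13 to 3.57). *Gja1*, the main gap junction gene of the fasciculata, had 124, 223 and 32.3 CPM (ratio 3.84, 3.17 to 4.69). All 3 were highest in the *Cyp11b1*-low cells.

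*Mapk13*, *Dhrs3*, *Car8* and *Dnmt3l* had the same order across the 3 groups. *Zmat5* did not, at 248, 117 and 95.8 CPM, nor did the complement gene *C4b*, at 425, 159 and 168 CPM, which has a near-identical copy, *C4a*, among the same genes. In *Mrap*, *Abcb1b*, *Mgst1* and *Thrb* too the *Cyp11b1*-high level lay between those of the *Wnt4*-positive and the *Cyp11b1*-low cells.

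Against the cycling cortex cells the *Cyp11b1*-high cells had more of *Hao2* (735 against 147 CPM, ratio 5.01, 4.51 to 5.58), *Cdkn1c* (1782 against 423 CPM, ratio 4.21, 3.96 to 4.48), *Acsbg1*, *Frzb* and *Akr1b7*. They also had more of *Tmem35a* (307 against 77.5 CPM) and the thromboxane receptor gene *Tbxa2r* (58.5 against 9.05 CPM), and more of *Gulp1*, *Aebp1* and *Klhdc8a*. The 10 genes lower by most were all of the cell cycle, such as *Top2a* (3.09 against 564 CPM), *Mki67* and *Stmn1*, which the choice of cells by cycling markers fixes. The cycling cells were mixed in zone, since *Akr1c18* had a UMI in 70.2% of them and *Mc2r* in 35.6%.

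The *Cyp11b1*-high cells were not uniform. They were divided into 4 bands at the quartiles of their *Cyp11b1* share (175, 174, 175 and 175 cells), and levels were computed with *Cyp11b1* left out of the totals. The share ran from 0.101% to 0.303% in the lowest band and from 0.626% to 1.201% in the highest. The bands also differed in depth, with medians of 3793, 4608.5, 4917 and 6202 UMIs, in mitochondrial share (8.71%, 10.7%, 11.8% and 11.95%) and in called doublets (13, 7, 2 and 0 cells). Without called doublets 26 genes were at least 2-fold higher in the highest than in the lowest band and 63 lower, in place of 26 and 72. With mitochondrial transcripts left out of the totals the counts were 38 and 71. The part of depth, and any other part of mitochondrial share, in the differences between bands was not tested.

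Some steroidogenic rule genes were higher in the bands with more *Cyp11b1*. *Star* stood at 5371, 6473, 7161 and 8719 CPM from the lowest to the highest band (1.62 times from end to end, 1.57 to 1.68), and *Hsd3b1* at 8033, 8819, 9662 and 10619 CPM. *Mc2r* had 328, 555, 618 and 671 CPM (2.05 times, 1.78 to 2.36). *Cyp11a1* did not follow, with 5094, 6716, 6488 and 5768 CPM. The list of other steroid enzymes and electron donors, outside the rule, had 1 of 12 genes at least 2-fold higher in the highest than in the lowest band and 1 lower, *Akr1c18* (median log2 fold -0.017). Over all 5478 genes tested 0.475% were higher and 1.31% lower.

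*Cdkn1c*, outside the rule, had 1179, 1714, 1985 and 2108 CPM and *Hao2* 425, 717, 763 and 945 CPM. *Akr1b7* went from 591 CPM in the lowest band to 1291, 1075 and 1296 CPM in the others. Over 5478 genes tested, 26 were at least 2-fold higher in the highest than in the lowest band (0.475%) and 72 lower (1.31%). With 1000 genes or more and 10% mitochondrial UMIs or less the counts were about equal, at 150 and 152. The 10 leading the higher side included *Pla1a* (14.8 to 68.9 CPM), *Tbxa2r* (22.2 to 68.9 CPM), the retinol-oxidising gene *Adh7* (261 to 600 CPM) and the fatty acid transporter gene *Cd36* (80.1 to 193 CPM).

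Of 3 X-zone genes 2 were at least 2-fold lower in the highest than in the lowest band (median log2 fold -3.05), and of 3 outer cortex genes 1 (median -0.018). The X-zone count was 1 of 2 with a *Cyp11b1* threshold of 0.2% and without called doublets. *Akr1c18* stood at 1158, 123, 89.4 and 19.9 CPM from the lowest to the highest band, *Apoc1* at 1574, 244, 123 and 63.1 CPM and *Ly6d* at 607, 247, 150 and 35.7 CPM. In the lowest band they had 573, 776 and 382 CPM at a threshold of 0.2%. With 1000 genes or more and 10% mitochondrial UMIs or less they had 1802, 2606.5 and 1179 CPM there. *Apoc1* then had 951, 64.7 and 191 CPM in the other bands. Of 10 cholesterol synthesis genes tested, 7 were at least 2-fold lower in the highest band (median log2 fold -1.24), with *Fdps* at 265, 69.4, 68.4 and 46.5 CPM. That count was smaller under other settings, at 2 of 9 (median -0.74) with a *Cyp11b1* threshold of 0.2%, 4 of 11 (median -0.67) with 1000 genes or more and 10% mitochondrial UMIs or less, 4 of 10 with 50 CPM added and 5 of 9 (median -1.10) without called doublets. Of 19 immediate-early and heat shock genes, 12 were lower (median -1.21, or 4 and -0.73 with 50 CPM added), with *Fos* at 619.5, 393, 199.8 and 136 CPM and *Hspa1a* at 92.4, 68.2, 48.4 and 26.6 CPM. Without the called doublets *Akr1c18* in the lowest band was 661 CPM and *Apoe*, a gene abundant in macrophages, 99.7 in place of 261 CPM. *Fos* was then 631, 380, 199 and 140 CPM. Other markers of cells outside the cortex were lower in the highest band too. The chromaffin gene *Pnmt* stood at 64.0, 25.7, 27.3 and 14.9 CPM from the lowest band up, and 2 of 3 erythrocyte genes were at least 2-fold lower (median log2 fold -1.03), with *Hbb-bs* at 1594, 2211, 964 and 533 CPM. Without the cells that had a haemoglobin UMI, 12 of 18 immediate-early and heat shock genes were lower (median -1.32). Whether the RNA that carried *Pnmt* had a part in the band differences was not tested.

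**Figure D5:**
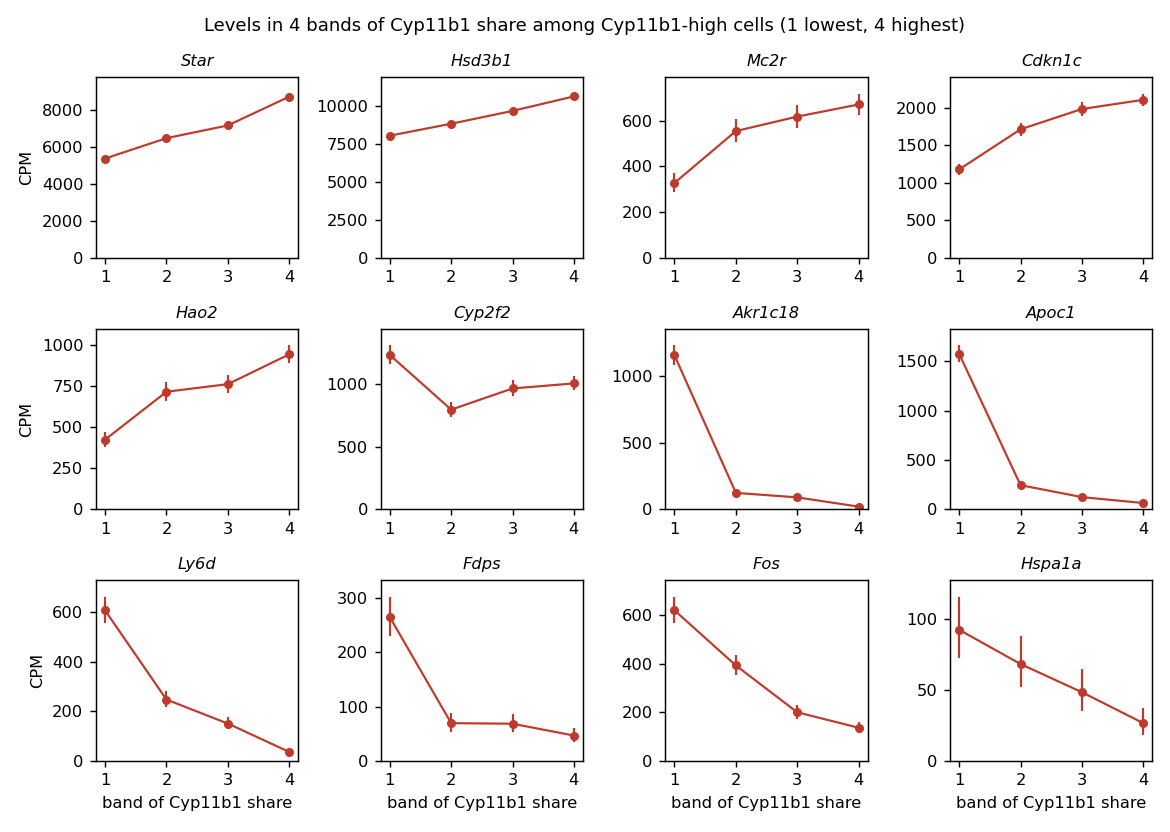
Levels of 12 genes (y axis, CPM, linear from 0, 1 panel per gene) in the 4 bands of *Cyp11b1*-high cells by their *Cyp11b1* share (x axis, lowest to highest), with bars for 95% Poisson intervals and *Cyp11b1* left out of the totals. *Star*, *Hsd3b1*, *Mc2r*, *Cdkn1c* and *Hao2* climb from the lowest to the highest band, while *Akr1c18*, *Apoc1*, *Ly6d*, *Fos* and *Hspa1a* fall, *Akr1c18* from 1158 to 19.9 CPM.

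Few cells carried most of the *Akr1c18*. In 24 of the 699 cells (3.43%) it made up 0.1% of UMIs or more, and these held 1012 of the 1159 *Akr1c18* UMIs. Their median *Cyp11b1* share was 0.242%, against 0.472% in the other 675 cells, and their median depth 7792.5 against 4900.0 UMIs. Scrublet called 7 of the 24 doublets (29.2%), against 15 of the other 675 (2.22%).

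In these 24 cells *Pik3c2g* stood at 406 CPM (320 to 507) against 4.33 CPM in the other *Cyp11b1*-high cells, *Apoc1* at 3738 against 265 CPM and *Fdps* at 633 against 75.3 CPM. *Mc2r* had 306 against 569 CPM and *Cdkn1c* 917 against 1827 CPM. Cells holding both sets of transcripts cannot be told apart here from droplets with a *Cyp11b1*-high and a *Cyp11b1*-low cell together.

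The pooled mice were of both sexes, and transcripts of *Xist*, made by the inactive X of females, and of 4 Y-linked genes divided part of the *Cyp11b1*-high cells. *Xist* alone was seen in 166 cells (23.7%), Y-linked transcripts alone in 331 (47.4%), both in 12 and neither in 190. *Xist* alone was seen in 17.5% of the *Cyp11b1*-low and 36.1% of the *Wnt4*-positive cells, and Y-linked transcripts alone in 51.6% and 41.4%. Median depth was 4868.5 UMIs in the *Xist*-only and 5624 UMIs in the Y-only cells, and the number of mice of each sex is not given in the sources used here.

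*Cyp11b1* was level between the *Xist*-only and the Y-only cells, at 5150 and 5178 CPM, as was *Mc2r* at 566 and 567 CPM. *Star* had 6351 and 7560 CPM and *Akr1b7* 985 and 1141 CPM. Leaving out *Xist* and the Y-linked genes, 4 of 5471 genes were at least 2-fold higher in the *Xist*-only cells (0.0731%) and 22 lower (0.402%). These counts depended on the settings, at 0 and 7 with 50 CPM added, 22 and 42 with 1 CPM added, and 67 and 150 with 1000 genes or more and 10% mitochondrial UMIs or less. *Akr1d1* had 63.0 against 187 CPM (ratio 0.336, 0.249 to 0.446) and *Cyp2f2* 562 against 1189 CPM (ratio 0.473, 0.429 to 0.521).

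The genes higher in the *Xist*-only cells were *Sorbs2* (67.5 against 18.1 CPM), *Dab2* (202 against 76.5 CPM), *Dcn* and *Fxyd6*. Among the 22 lower were the antigen presentation genes *B2m* (41.6 against 145 CPM) and *H2-D1* (43.9 against 133 CPM). Cells of 1 sex may come from few animals, and sex and animal cannot be told apart. *Akr1d1*, *Cyp2f2*, *Dab2* and *Sorbs2* were also among the genes that led the contrast with the *Wnt4*-positive cells. A larger share of the *Wnt4*-positive than of the *Cyp11b1*-high cells had *Xist* only. The part of this sex mix in that contrast was not tested.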

How the data were processed

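Adrenal medullae of P15 wild-type mice were profiled as 1 droplet library. The authors deposited unnormalized UMI counts for 32285 genes and 11214 barcodes (51421499 UMIs, 500 to 33809 per barcode, median 3250), made with Cell Ranger 4.0.0. The genome was mm10 per the submitters' processing notes. Barcodes outside 500 to 5000 genes or above 20% mitochondrial UMIs were left out, as in the study's methods.

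UMIs were summed over each group and scaled to CPM. Exact Poisson intervals (levels), exact binomial Clopper-Pearson intervals (shares) and exact conditional intervals (ratios), all at 95%, cover counting error only. With 1 library no test was made. Folds had 10 CPM added to both groups, which understates the change of low genes, and levels are not corrected for gene length, so they compare groups, not genes. The script was tested on simulated data. Doublets were called with Scrublet in scanpy 1.11.5 at an expected rate of 8% and kept. Python 3.11.15, numpy 2.4.6, scipy 1.17.1, pandas 2.3.3 and matplotlib 3.10.9 were used.

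Named genes were those of gene lists, the 10 largest folds per direction and comparison (detected in 10% or more of the higher group) and the 15 leading genes over cells with under 3 steroidogenic genes (detected in 25% or more of the *Cyp11b1*-high cells). The genes leading the band and sex comparisons were named after their values were seen. A few members of the lists are counted but not reported here by name. The cells and lists were chosen with earlier results of these data known. Promoter windows came from RefSeq and gene positions from its GRCm38 table. No window was used here for *Cyp11b1*, *Star* and the other genes without an entry, nor for genes on chromosome 18, such as *Mc2r*.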

Additional observations from a re-analysis of the deposited data

How the results depend on the processing

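No paired analysis was possible because the data are 1 library with no replicates. The number of *Cyp11b1*-high cells was 742 and 619 at *Cyp11b1* thresholds of 0.05% and 0.2%, 654 with at least 7 of the 9 steroidogenic genes, 677 without called doublets and 685 without cells bearing markers of another type. It dropped to 262 under a floor of 1000 genes and a ceiling of 10% mitochondrial UMIs. That filter also gave 58 genes higher than in the *Wnt4*-positive cells, 150 higher and 152 lower in the highest than in the lowest band, and 67 higher and 150 lower in cells with *Xist* only than in cells with Y-linked transcripts only, from fewer cells. Requiring 7 of 9 genes left 59 genes higher than in the cycling cells. Thinning to 1000 UMIs gave 77 higher and 103 lower against the *Wnt4*-positive cells and 194 higher against the cycling cells. Adding 1 CPM gave 62 and 144 higher against the *Wnt4*-positive and cycling cells, 80 higher and 114 lower between bands, and 22 and 42 between the sexes. Adding 50 CPM gave 87 higher and 93 lower against the *Cyp11b1*-low cells, 8 and 24 against the *Wnt4*-positive cells, 27 and 107 against the cycling cells, 3 and 26 between bands, and 0 and 7 between the sexes. With no minimum level, 130 genes were lower than in the *Wnt4*-positive cells, 469 than in the cycling cells and 134 in the highest band, and the sexes gave 7 and 38. A 0.2% threshold gave 16 and 45 between bands.

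After the data had been seen, 3 settings were added and the within-group comparisons were put through the alternatives. At least 2 *Wnt4* UMIs for the *Wnt4*-positive group made 917 *Cyp11b1*-high cells and 64 genes higher. Leaving out cells with a haemoglobin UMI left 553 cells and 14 genes lower in the *Xist*-only cells. The last left mitochondrial transcripts out of the totals. It gave 248 genes higher and 193 lower than in the *Cyp11b1*-low cells, 41 and 57 against the *Wnt4*-positive and 116 and 236 against the cycling cells. Of the 60 folds of the leading genes in the 3 contrasts, 59 moved beyond the counting interval with 50 CPM added, 34 with 1 CPM, 20 on thinning and 19 under the stricter cell filter, none changing sign. Of 114 list-gene folds past 2, the sign changed only for *Lyz2* and *Apoe*, against the *Wnt4*-positive cells, without doublets (*Lyz2*) or with 2 *Wnt4* UMIs (both). The cholesterol synthesis genes lower than in the *Cyp11b1*-low cells numbered 12 to 18 over all settings, and the immediate-early and heat shock genes lower than in the *Wnt4*-positive cells 8 to 15. The cause of these shifts was not tested.

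With a median of 4925 UMIs per cell, a gene under about 20 CPM is rarely seen in a single cell, and no difference has a replicate check.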
